A study of Mus musculus with 8 samples.

Results

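The genes described here are 38 genes of the cell division cycle, chosen by name: 14 act in DNA replication or in the supply of its building blocks, and 24 act in mitosis. Probes were tied to genes through the transcript accession each probe was designed on. Of the 38 genes, 37 had a named probe among the 16309 genes named on the array. The exception, Mki67, the gene of the Ki-67 antigen used to stain cycling cells, was not analysed here. All 37 passed the filter on low signals, and the brightest probe of each lay well above background on all 8 arrays.

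The arrays were made from mucosa of the middle colon, taken 2.5 to 3.5 cm from the ileocecum, and of the rectum. The mice were wild-type (WT) or lacked the gene of the cytokine interleukin 18 (IL18ko). Brothers shared a cage until 10 to 12 weeks of age. Control mice of either genotype were then sampled without isolation, and stress mice were housed singly first, for 8 days by the text on the design and 16 days by the treatment protocol. The labels give 10 to 12 weeks for every group. Of 5 brothers per cage, 2 were used as controls and 3 for isolation. By the order of steps given, isolated mice were older than control mice when sampled, and age and housing cannot be told apart. The labels name no strain and do not say how the knockout was made or whether the colon and rectum RNA came from the same animals. There were 8 groups, and each was measured once, on 1 array that held a pool of RNA from 5 mice. All colon arrays lay on 1 slide and all rectum arrays on another, which means that a tissue difference and a slide difference cannot be told apart. On both slides the WT arrays lay at positions 1 and 2 and the IL18ko arrays at positions 3 and 4. Genotype and position on the slide therefore cannot be told apart either.

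A dividing cell copies its DNA once in S phase, when the MCM helicase unwinds DNA at licensed origins and PCNA clamps the polymerases to it. It then divides in mitosis, driven by CDK1 with cyclins A and B, held back by the spindle checkpoint, and ended when the anaphase-promoting complex destroys cyclin B. In the large intestine most dividing cells are stem and progenitor cells in the lower part of the crypt, and their daughters stop cycling as they move up. Many replication genes are switched on by E2F factors before S phase. Many mitosis genes are switched on later, through a pair of promoter elements called CHR and CCAAT.

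Promoter sequences of 31 of the 38 genes were held in a RefSeq table of build GRCm38.p6, as windows from 250 bases before to 50 bases after the annotated start. They were searched on both strands for the CHR words TTTGAA and TTTAAA, for CCAAT, and for the E2F word TTGGCGC with its variants, spelt TTCCCGC in one case and TTCGCGC in the other. TTTAAA reads the same on both strands, and an E2F word can overlap another E2F word or a CCAAT. The 150 bases before the start are shown for 2 mitosis genes and 2 replication genes that recur in the results and differ in these words; they were chosen after their values were seen. Capitals mark the matched words, and each line runs 5′ to 3′ toward the start.
Ccnb1 (cyclin B1; chr13:100786487-100786636, minus strand): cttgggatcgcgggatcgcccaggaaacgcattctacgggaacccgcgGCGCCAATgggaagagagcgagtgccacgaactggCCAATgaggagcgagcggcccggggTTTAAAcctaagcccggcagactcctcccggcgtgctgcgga
Cdc20 (activator of the anaphase-promoting complex; chr4:118437344-118437493, minus strand): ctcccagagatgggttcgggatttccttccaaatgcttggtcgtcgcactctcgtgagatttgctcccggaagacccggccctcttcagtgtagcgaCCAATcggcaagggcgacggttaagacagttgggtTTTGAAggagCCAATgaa
Mcm6 (subunit of the MCM helicase; chr1:128359706-128359855, minus strand): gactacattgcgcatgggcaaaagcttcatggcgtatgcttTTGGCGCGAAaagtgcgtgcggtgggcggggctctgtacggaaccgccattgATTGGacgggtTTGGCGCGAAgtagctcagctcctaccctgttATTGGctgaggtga
Pcna (the polymerase clamp; chr2:132253181-132253330, minus strand): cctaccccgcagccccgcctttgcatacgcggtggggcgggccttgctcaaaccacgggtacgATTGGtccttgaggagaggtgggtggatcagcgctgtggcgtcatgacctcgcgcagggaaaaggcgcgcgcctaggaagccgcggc

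The mitosis and replication genes differed in the words their windows held. A CHR word was found in 16 of 19 mitosis windows (84.2%) and in 4 of 12 replication windows (33.3%). Among the 10149 genes tested on the array that had a window, the share was 20%. CCAAT was found in 84.2% of mitosis windows, 66.7% of replication windows and 38.6% of the windows of tested genes. Both words together were found in 78.9%, 25% and 8.07%, in the same order. E2F words ran the other way, with 3 of 19 mitosis windows (15.8%), 7 of 12 replication windows (58.3%) and 13.6% of tested genes. In the lines above, Ccnb1 has the CHR word TTTAAA from -42 to -37, counted from the start, and Cdc20 has TTTGAA from -18 to -13. Ccnb1 is also 1 of the 3 mitosis genes with an E2F word, on the reverse strand at -102 to -96, where it overlaps a CCAAT. Mcm6 has a run in which 2 E2F words overlap at -109 to -100 and again at -46 to -37. Pcna has 1 CCAAT, on the reverse strand at -87 to -83. A match describes letters in the window and does not show that a factor binds there.

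**Figure D1:**
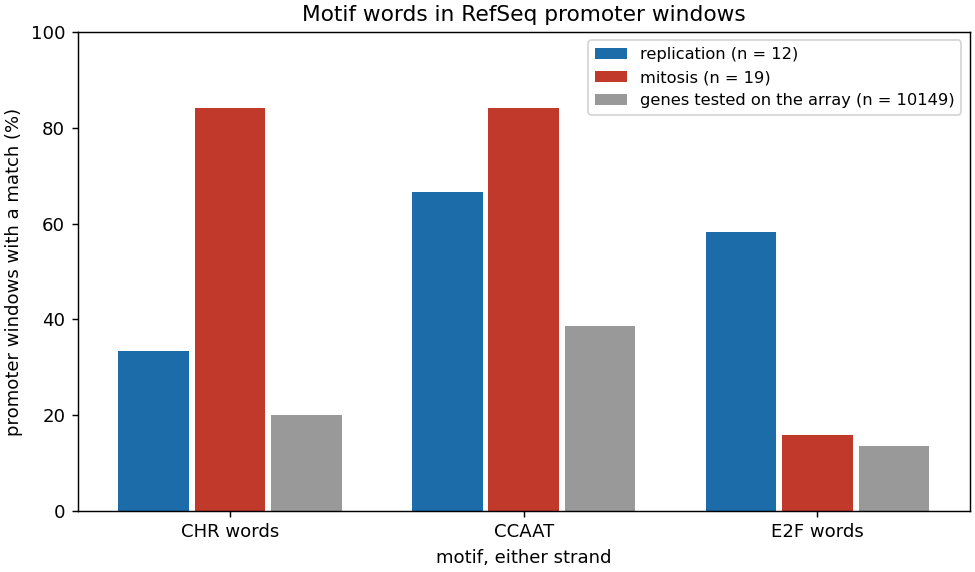
Share of promoter windows (%, vertical axis) with at least 1 match to the CHR words, CCAAT or the E2F words, for the replication genes, the mitosis genes and all tested genes with a window. The mitosis bar is highest for CHR (84.2%) and the replication bar for E2F (58.3%).

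Levels are given as log2 of the background-corrected intensity relative to the 75th percentile of the array, so that 0 is the level of a spot at that percentile. Between 62.2% and 66.4% of the spots of an array lay well above background and none was saturated. The targeted gene followed the labels: Il18 was at 2.68, 2.83, 4.35 and 5.81 on the WT arrays and not well above background on the 4 IL18ko arrays. Among the positional genes of the hindgut, Hoxb13 stood at 2.01 to 2.47 in colon and 5.48 to 5.66 in rectum. Hoxd10 and Hoxd13 were also higher in rectum. Cdx2 went the other way, at 5.54 to 7.02 in colon and 1.84 to 3.61 in rectum. The 9 markers of epithelium were detected on every array, with a summed level (linear, in units of the 75th percentile) of 1260 to 1420 in colon and 1290 to 1500 in rectum. The 9 detected markers of crypt stem and progenitor cells summed to 18.6 to 23.9 in colon and 20.5 to 23.5 in rectum.

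The array of stressed WT rectum stood apart from the others. For 4180 genes with several tested probes, the 2 brightest probes of each gene were compared. In the WT rectum their stress minus control differences were at least 0.5 apart in 41.0% of genes, compared with 6.7%, 9.93% and 5.93% in WT colon, IL18ko colon and IL18ko rectum. The 2 probes of the helicase gene Mcm3 gave 0.54 and -0.48 there, and those of the kinetochore motor gene Cenpe gave 0.26 and -0.89. For this reason the counts and medians per role, the genes called between tissues or genotypes and the interaction values are also given without it. Probes disagreed in other stress comparisons too. The share at least 0.5 apart was 27.0% for rectum minus colon in IL18ko stress and 21.2% for IL18ko minus WT in stressed colon. Both include the IL18ko stress colon array, and neither includes WT stress rectum. The tissue and genotype comparisons with WT stress rectum gave 41.7% and 41.3%, and those of control mice 7.2% to 13.1%.

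Across the 8 arrays the median mitosis gene followed an order that the median replication gene did not share. Relative to its own mean, the median mitosis gene lay at 0.46, 0.31, 0.25 and 0.13 on the colon arrays of WT control, WT stress, IL18ko control and IL18ko stress mice. On the rectum arrays it lay at -0.19, 0.10, -0.42 and -0.50 in the same order. The array of WT control colon was the highest for 15 of the 23 mitosis genes, and that of IL18ko stress rectum the lowest for 13. The median replication gene lay at 0.19, 0.08, -0.11 and -0.12 in colon and at 0.12, 0.25, -0.12 and -0.32 in rectum. It was above 0 on the 4 WT arrays and below 0 on the 4 IL18ko arrays. WT stress rectum was the highest array for 7 of the 14 replication genes and the lowest for 7 of the 23 mitosis genes.

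**Figure D2:**
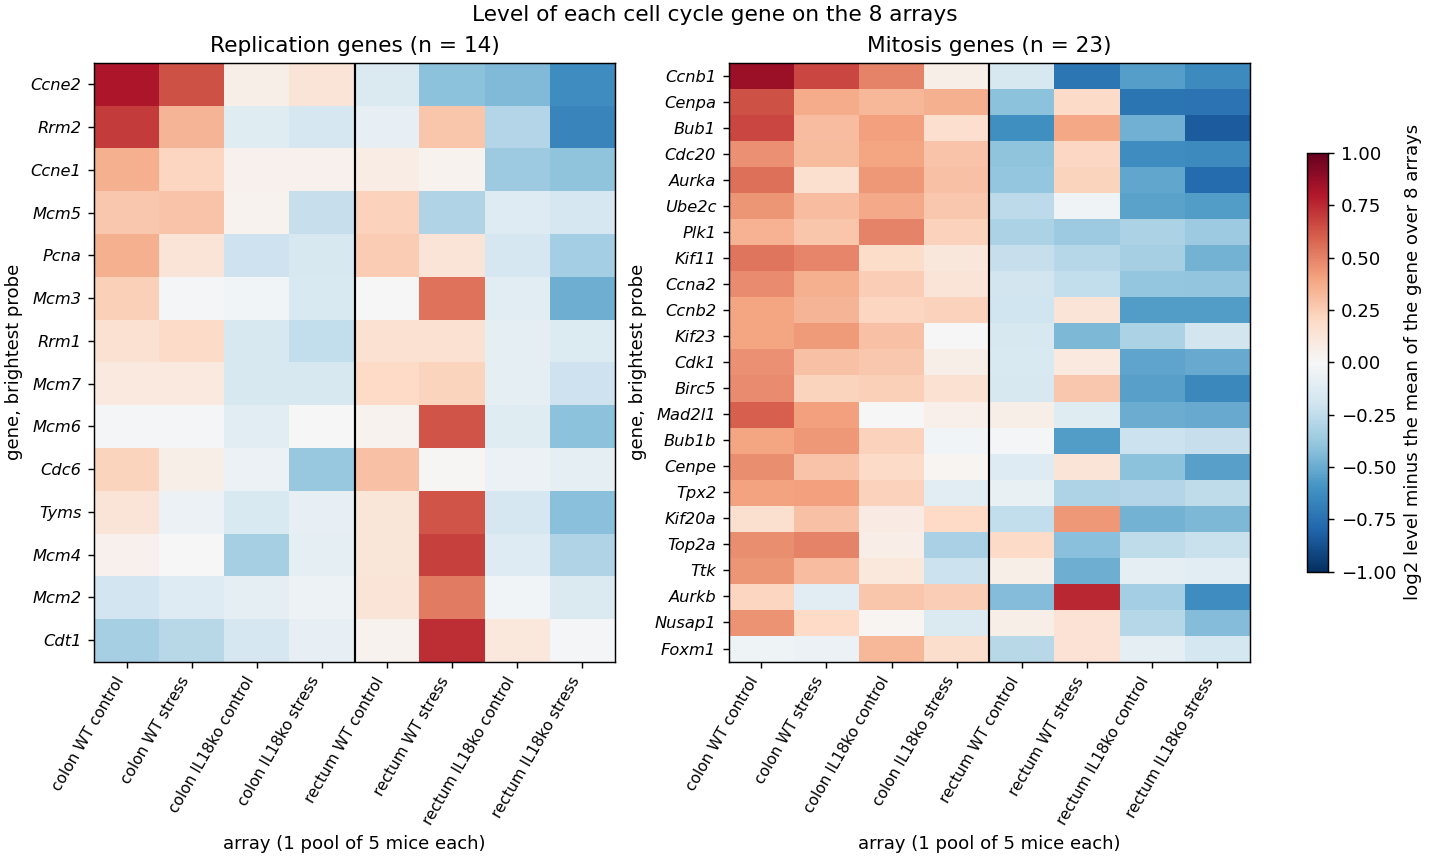
Level of each gene (rows) on each of the 8 arrays (columns) as log2 minus the mean of that gene over the arrays, with red above and blue below the mean. The black line separates colon from rectum. Mitosis genes are mostly red in colon and blue in rectum, while replication genes have no such split and several peak on the WT stress rectum array.

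The comparison of rectum with colon used the 4 mouse groups as pairs. Of the 37 genes, 17 were lower in rectum and 0 higher at an adjusted p under 0.05 (limma, Benjamini-Hochberg over 26265 probes). Over the 12718 genes tested, 30.4% were called in either direction and 15.3% lower. The calls fell on one role: 16 of 23 mitosis genes were called, compared with 1 of 14 replication genes. The median difference was -0.54 for mitosis genes, where all 23 lay below 0, and 0.05 for replication genes, where 8 lay above and 6 below; the median over all tested genes was 0.05. The medians without the WT stress pair were -0.63 and -0.06. Colon and rectum levels did not overlap, with rectum lower, for 9 mitosis genes and 1 replication gene, compared with 15.6% of all tested genes. In bulk mucosa, fewer dividing cells and less RNA of these genes per cell cannot be told apart.

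Cyclin B1, the partner that activates CDK1 for entry into mitosis, showed the largest difference of the 37 genes. Ccnb1 was at 0.58, 0.39, 0.22 and -0.22 in colon (WT control, WT stress, IL18ko control, IL18ko stress) and at -0.44, -1.0, -0.83 and -0.91 in rectum. Every rectum array lay below every colon array. The difference was -1.04 ± 0.14 (log2, SE, n = 4 pairs; adjusted p = 0.00234), or 2.05-fold, and without the WT stress pair it was -0.92. The other 2 probes of Ccnb1 gave -0.81 ± 0.12 and -0.89 ± 0.18, with adjusted p of 0.00328 and 0.014. Ccnb2, which encodes cyclin B2, fell by 0.59 ± 0.12, and Ccna2, which encodes cyclin A2, fell by 0.61 ± 0.09.

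Cenpa encodes the histone H3 variant that marks centromeres. Its levels were 0.47, 0.20, 0.16 and 0.19 in colon and -0.58, 0.02, -0.90 and -0.91 in rectum. The groups did not overlap, but the array of WT stress rectum lay close to the colon arrays. Cenpa fell by 0.85 ± 0.18 (n = 4 pairs; adjusted p = 0.015), and the WT stress pair differed by -0.18 where the other pairs differed by -1.05, -1.06 and -1.10, with a mean of -1.07 without it.

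The spindle checkpoint kinase gene Bub1 was at -0.48, -0.84, -0.74 and -0.98 in colon and at -1.76, -0.76, -1.63 and -1.98 in rectum. The WT stress rectum array lay within the colon range, and the other 3 rectum arrays lay below it. Bub1 fell by 0.77 ± 0.22 (n = 4 pairs; adjusted p = 0.0456), and without the WT stress pair the difference was -1.06. The related kinase gene Bub1b fell by 0.51 ± 0.15, and Mad2l1, whose product inhibits CDC20 until chromosomes are attached, fell by 0.53 ± 0.10 with 4 pairs between -0.54 and -0.50. Ttk, the kinase that starts the checkpoint signal, had a difference of -0.33 ± 0.19 and did not pass.

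Cdc20 stood at 3.98, 3.84, 3.92 and 3.81 in colon and at 3.12, 3.73, 2.90 and 2.89 in rectum. All rectum arrays lay below the colon arrays, and the WT stress pair differed least, by -0.12. Cdc20 fell by 0.73 ± 0.16 (n = 4 pairs; adjusted p = 0.0187), and without that pair the difference was -0.94. Ube2c, which encodes the ubiquitin-conjugating enzyme of the same complex, fell by 0.69 ± 0.13.

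Among the mitotic kinases, Plk1 fell by 0.68 ± 0.09, Aurka by 0.72 ± 0.20 and Cdk1 by 0.54 ± 0.13. Aurkb, of the chromosomal passenger complex, had a difference of -0.32 ± 0.29 and did not pass, while its partner Birc5 (survivin) fell by 0.54 ± 0.16. In 3 pairs Aurkb differed by -0.65, -0.62 and -0.87, and in the WT stress pair by 0.86. Of the spindle motor and spindle assembly genes, Kif11 fell by 0.66 ± 0.11, Kif23 by 0.55 ± 0.14 and Tpx2 by 0.47 ± 0.13. Cenpe (-0.48), Kif20a (-0.37), Nusap1 (-0.26) and the topoisomerase gene Top2a (-0.35) did not pass on their brightest probes. The second probe of Cenpe gave -1.07 ± 0.24 (adjusted p = 0.0181) and that of Top2a -0.91 ± 0.14 (adjusted p = 0.00489), so the brightest probe decided these 2 genes. Foxm1, the transcription factor of mitosis genes, had a difference of -0.20 ± 0.14 and did not pass.

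The only replication gene called was Ccne2, which encodes cyclin E2, a partner of CDK2 at the start of S phase. It was at -1.93, -2.10, -2.68 and -2.61 in colon and at -2.88, -3.15, -3.18 and -3.36 in rectum. The groups did not overlap. Ccne2 fell by 0.81 ± 0.14 (n = 4 pairs; adjusted p = 0.0072), and its second probe gave -0.83 ± 0.23. The difference of Ccne2 without the WT stress pair was -0.74. Ccne1, which encodes cyclin E1, had a difference of -0.33 ± 0.10 (adjusted p = 0.0519).

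The other replication genes were near 0 or mixed between rectum and colon. The MCM helicase genes gave -0.18 ± 0.13 for Mcm5, -0.02 ± 0.16 for Mcm3, 0.06 ± 0.09 for Mcm7, 0.07 ± 0.17 for Mcm6, 0.19 ± 0.15 for Mcm4 and 0.24 ± 0.14 for Mcm2. Mcm3 turned to 0.025 with median centring. Cdt1, which loads the helicase onto origins, had the highest difference, 0.43 ± 0.16 (adjusted p = 0.0972), and did not overlap between tissues. Cdc6, its partner in loading, was at 0.08 ± 0.12. Pcna was at -0.06 ± 0.09, and its levels of 4.90, 4.68, 4.34 and 4.39 in colon lay beside 4.8, 4.68, 4.38 and 4.21 in rectum. Of the nucleotide supply genes, Rrm1 was at 0.03 ± 0.09 (-0.005 after quantile normalization), Rrm2 at -0.37 ± 0.15 and thymidylate synthase, Tyms, at 0.08 ± 0.17. Without the WT stress pair Mcm6 and Tyms turned to -0.12 each, Mcm3 was at -0.21, Mcm4 at 0.02, Mcm2 at 0.10 and Cdt1 at 0.24, and none of these 6 passed.

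**Figure D3:**
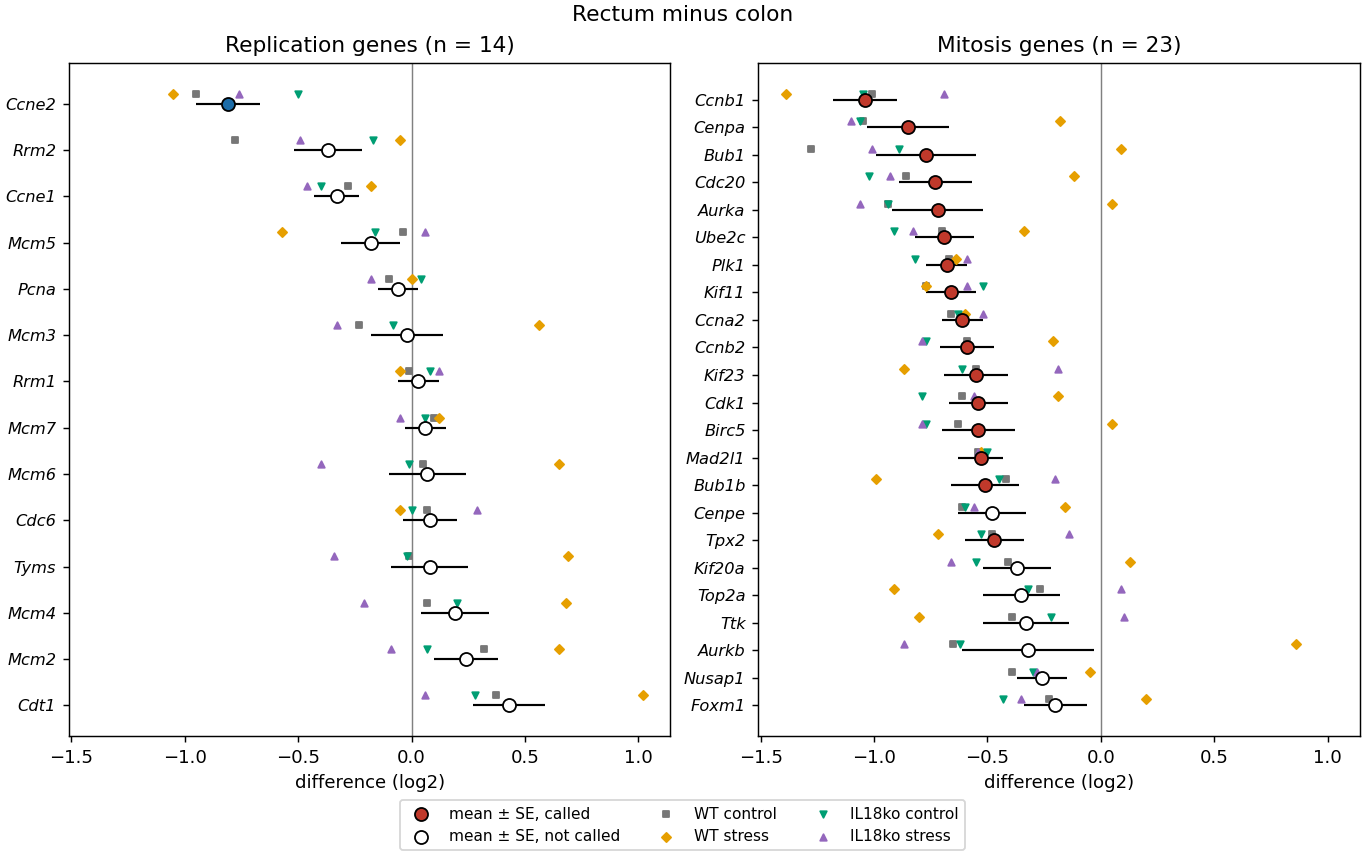
Rectum minus colon difference of each gene (log2, horizontal axis). Circles with bars are the mean of 4 pairs ± SE from limma, filled where the adjusted p was under 0.05, and small symbols are the pairs. All 23 mitosis genes lie below 0, and the WT stress pair is often the one farthest from the others.

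The number of calls between tissues depended on the pairs. Without the WT stress pair 24 genes were called, among them all 17, where 22.2% of all tested genes were called lower. The 7 added were Aurkb (-0.71), Cenpe (-0.59), Kif20a (-0.54), Rrm2 (-0.48), Ccne1 (-0.38), Foxm1 (-0.34) and Nusap1 (-0.33). The other 17 genes called lay between -1.07 and -0.36 in that fit. Without the WT control, IL18ko control or IL18ko stress pair, 3, 5 and 11 genes were called, where 8.89%, 9.88% and 12.4% of all tested genes were called lower. Ccna2, Ccnb1 and Plk1 were called with each of the 4 pairs left out.

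Other genes of the same pathways were counted as whole lists, to be read against the 15.3% of all tested genes called lower and the 15.1% called higher in rectum. Of 45 further mitosis genes, 14 were lower and 0 higher in rectum (median -0.40), led by the spindle pole gene Aspm (-0.84 ± 0.17) and the kinetochore gene Spc25 (-0.74 ± 0.15). Of 37 further replication genes, 5 were lower and 0 higher (median -0.09); the largest were Dbf4 (-0.81 ± 0.14) and Cdc7 (-0.79 ± 0.15), which encode the subunits of the kinase that fires origins. Of 26 genes of the G1 cyclins and the E2F network, 2 were higher and 1 lower, with Ccnd2 (cyclin D2) at 1.32 ± 0.10, Tfdp2 (an E2F partner) at 0.74 ± 0.14 and E2f5 at -0.45 ± 0.11. Among 14 tested CDK inhibitors and antiproliferative genes, 1 was higher and 5 were lower. Btg1 rose by 0.66 ± 0.09, while Cdkn1c (p57) fell by 1.60 ± 0.14 and Gadd45g by 1.01 ± 0.12. Without the WT stress pair, 30 of the 45 mitosis genes were lower and 2 higher, and 9 of the 37 replication genes were lower and 2 higher. These counts are to be read against the 22.2% of all tested genes called lower in that fit. Over all 26265 probes, that fit called 5742 higher and 4995 lower.

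Markers of other cell types also differed between the tissues. Goblet cell markers summed to 1110 to 1170 in colon and 729 to 875 in rectum, with 3 of 5 tested markers lower. Markers of differentiated colonocytes summed to 933 to 1050 and 588 to 609, with 4 of 8 lower and 3 higher. B and plasma cell markers summed to 13.6 to 27.4 and 1.48 to 4.23, with 2 of 5 lower and 2 higher, and Cd79a was well above background on 1 array only. Of the germinal centre B cells, which divide fast, 3 of 4 markers were tested and 1 was lower (Rgs13); they summed to 3.7 to 4.77 in colon and 2.3 to 3.3 in rectum, and Mybl1 was above background on 0 arrays. Skeletal muscle markers summed to 3.47 to 5.97 in colon and 6.88 to 151.0 in rectum, with 6 of 10 higher. Neutrophil markers summed to 0.0471 to 0.0737 and 0.739 to 2.03, with all 3 tested higher and Elane above background on 0 arrays. Adipocyte markers summed to 26.7 to 55.6 and 10.7 to 35.4, with 6 of 7 lower, and macrophage markers to 1.71 to 2.87 and 2.73 to 4.21, with 3 of 4 higher. Squamous epithelium markers summed to 2.98 to 4.09 and 4.58 to 7.72, with 3 of 5 tested higher. Of the 9 stem and progenitor markers 3 were higher and 1 was lower, of 9 epithelial markers 1 was higher and 2 were lower, and of 5 T cell markers 1 was lower. Of the 4 positional genes of the hindgut 3 were higher and 1 was lower (Cdx2, -3.62). None of the 6 smooth muscle or 5 fibroblast and endothelial markers was called. The part of these cells in the cell cycle differences was not tested.

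The comparison of genotypes asked how mice without interleukin 18 differ, with genotype and housing fitted to the 4 tissue means. It rests on the same 8 arrays as the comparison of tissues. Of the 37 genes, 13 were lower in IL18ko and 0 higher at an adjusted p under 0.05; over all tested genes 13.1% were called in either direction and 6.55% lower. Both roles took part: 6 of 14 replication genes (median -0.33) and 7 of 23 mitosis genes (median -0.29) were lower, where the median over all tested genes was 0. All 14 replication genes and 21 of 23 mitosis genes lay below 0. The exceptions were Plk1 (0.02, but -0.037 with median centring and -0.002 with model-based background correction) and Foxm1 (0.12). The 4 IL18ko arrays lay below the 4 WT arrays without overlap for 8 replication genes and 1 mitosis gene, compared with 5.7% of all tested genes. These tests rest on 2 mouse groups per genotype with 1 residual degree of freedom, so their standard errors come mostly from variance shared across probes. Treated as 8 independent arrays, the same differences gave 0 calls of the 37 (lowest adjusted p = 0.0788, limma), with 21 at an unadjusted p under 0.05; of all tested genes 0.0708% were called lower. Without the variance trend the count was also 0 (lowest adjusted p = 0.115), with 18 at an unadjusted p under 0.05 and 0.0472% of all tested genes called lower. Quantile normalization gave 8 calls (4.54% of all tested genes), and a fit to 8 arrays that treats the mouse groups as a random effect gave 20 (12.1%).

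Nucleotide supply genes were among the larger differences. Rrm2, which encodes the regulatory subunit of ribonucleotide reductase, was at 0.55, 0.19, -0.23 and 0.13 on the WT arrays (colon control, colon stress, rectum control, rectum stress) and at -0.27, -0.32, -0.44 and -0.81 on the IL18ko arrays. The genotypes did not overlap, although IL18ko control colon at -0.27 lay close to WT control rectum at -0.23. Rrm2 fell by 0.62 ± 0.11 (SE, n = 4 tissue means; adjusted p = 0.00448). Rrm1, the catalytic subunit gene, was at -0.32 ± 0.10 (adjusted p = 0.0542), with 4 pairs between -0.44 and -0.23. Tyms was at 3.64, 3.45, 3.63 and 4.14 in WT and at 3.36, 3.43, 3.34 and 3.09 in IL18ko. The groups did not overlap, but the colon stress pair differed by -0.03 and the rectum stress pair by -1.05. Tyms fell by 0.41 ± 0.11 (adjusted p = 0.0236), and its second probe gave -0.44 ± 0.11 (adjusted p = 0.0173).

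The clamp gene Pcna was at 4.90, 4.68, 4.8 and 4.68 in WT and at 4.34, 4.39, 4.38 and 4.21 in IL18ko. Each IL18ko array lay below each WT array, and the 4 pairs lay between -0.56 and -0.29. Pcna fell by 0.43 ± 0.11 (n = 4 tissue means; adjusted p = 0.0182). The helicase gene Mcm4 was at 2.90, 2.86, 2.98 and 3.54 in WT and at 2.53, 2.77, 2.73 and 2.56 in IL18ko. The groups did not overlap, and the difference was largest in the rectum stress pair, at -0.99, where the others lay between -0.37 and -0.09. Mcm4 fell by 0.42 ± 0.10 (adjusted p = 0.0196). Mcm3 fell by 0.38 ± 0.11 and Ccne1 by 0.34 ± 0.10. Ccne2 (-0.44), Mcm6 (-0.32), Mcm7 (-0.31), Cdc6 (-0.29), Mcm5 (-0.25), Mcm2 (-0.16) and Cdt1 (-0.08) did not pass. Mcm7 and Cdc6 were nonetheless lower in 4 of 4 pairs without overlap. The second probe of Ccne2 gave -0.79 ± 0.18 and did pass (adjusted p = 0.0155), and that of Mcm3 gave -0.38 ± 0.11 (adjusted p = 0.034). The second probe of Ccne1 gave -0.40 ± 0.19 and did not pass (adjusted p = 0.182).

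Of the mitosis genes, the checkpoint gene Mad2l1 was at 0.78, 0.59, 0.24 and 0.06 in WT and at 0.19, 0.23, -0.31 and -0.32 in IL18ko. The genotypes overlapped across tissues but not within a tissue, and the 4 pairs lay between -0.60 and -0.36. Mad2l1 fell by 0.47 ± 0.11 (n = 4 tissue means; adjusted p = 0.0147). Nusap1, whose product binds spindle microtubules, was at 1.26, 1.01, 0.87 and 0.96 in WT and at 0.83, 0.67, 0.53 and 0.38 in IL18ko. It was the 1 mitosis gene whose genotypes did not overlap. Nusap1 fell by 0.42 ± 0.10 (adjusted p = 0.0183).

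Birc5 was at 4.64, 4.39, 4.01 and 4.44 in WT and at 4.41, 4.32, 3.63 and 3.53 in IL18ko, and Birc5 fell by 0.40 ± 0.11 (adjusted p = 0.0278). Its pairs ran from -0.07 in stressed colon to -0.91 in stressed rectum, and the genotypes overlapped. Cenpa, with the levels given above, fell by 0.39 ± 0.11 (adjusted p = 0.0338), and its pairs ran from -0.01 in stressed colon to -0.93 in stressed rectum. Top2a fell by 0.37, Cdk1 by 0.35 and Ccnb2 by 0.34. The second probe of Top2a gave -0.56 ± 0.18 and did not pass (adjusted p = 0.0575). Ccnb1 was at -0.32 ± 0.11 (adjusted p = 0.075), and its other 2 probes gave -0.15 and -0.09. Bub1 (-0.38), Cenpe (-0.38), Kif20a (-0.32), Cdc20 (-0.29), Aurka (-0.28), Kif11 (-0.25), Tpx2 (-0.22), Aurkb (-0.22), Ube2c (-0.22), Ccna2 (-0.20), Ttk (-0.16), Bub1b (-0.12) and Kif23 (-0.11) did not pass.

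**Figure D4:**
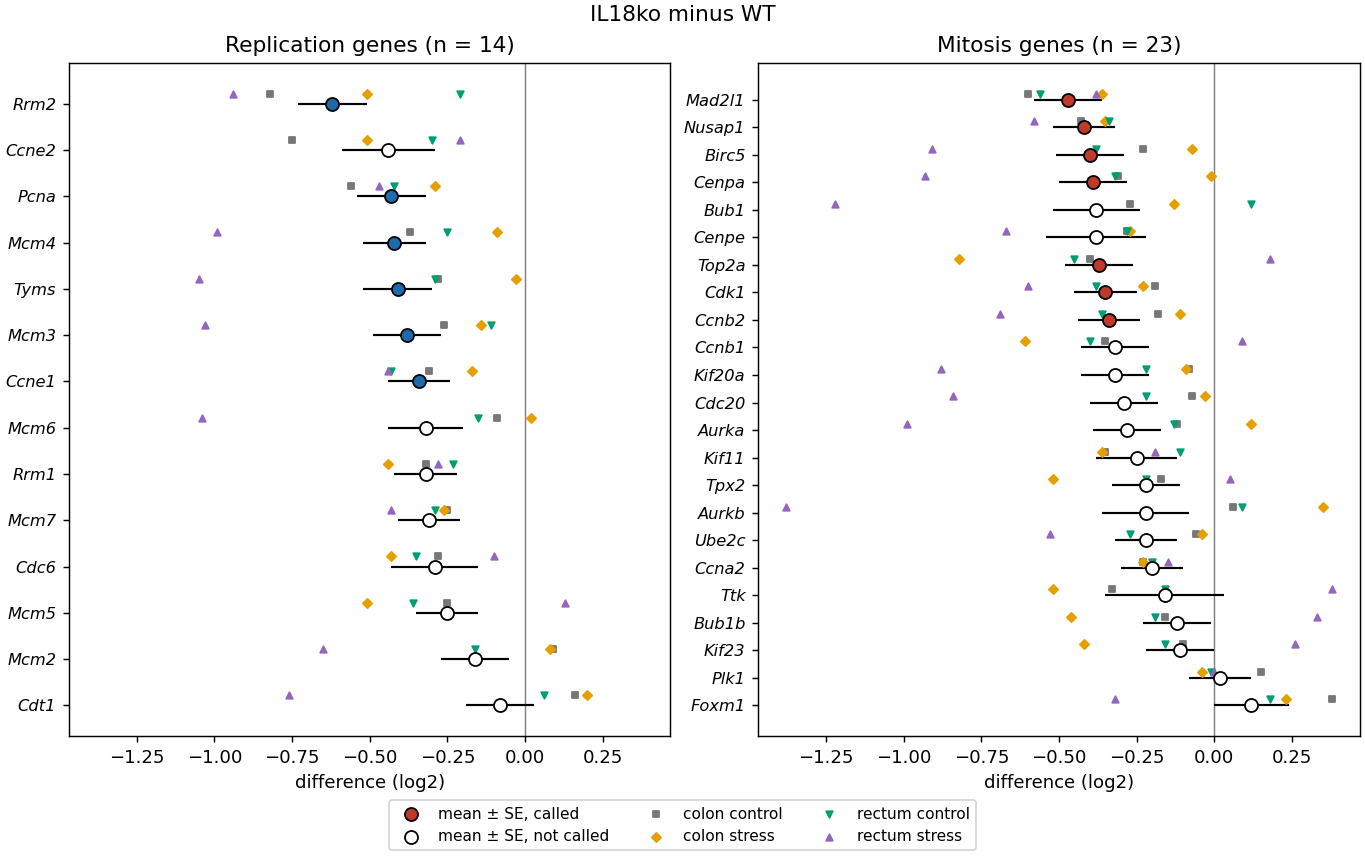
IL18ko minus WT difference of each gene (log2, horizontal axis). Circles with bars are the mean ± SE from limma on 4 tissue means, filled where the adjusted p was under 0.05, and small symbols are the 4 differences of 1 IL18ko array from 1 WT array. The rectum stress difference lies apart from the other 3 for many genes, below them for Tyms and Birc5 and above them for Top2a.

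The size of the genotype difference was uneven over the pairs. The median replication gene differed by -0.28 and -0.21 in control and stressed colon, and by -0.27 and -0.56 in control and stressed rectum. The median mitosis gene differed by -0.19, -0.23, -0.22 and -0.53 in the same order. The rectum stress difference includes the WT stress rectum array. In the model of 8 independent arrays, leaving that array out gave 11 calls (6 of them among the 13), where 7.74% of all tested genes were called lower, and leaving out any 1 of the other 7 gave 0. The 11 were Ccnb1, Ccne1, Ccne2, Mad2l1, Mcm5, Mcm7, Nusap1, Pcna, Rrm1, Rrm2 and Top2a. Without it the median difference was -0.30 for replication genes and -0.22 for mitosis genes.

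Of the 13 genes called in the fit to tissue means, 7 did not pass in the model of independent arrays without WT stress rectum, and 5 of these 7 moved by over 1.5 times. Tyms was then at -0.23 (adjusted p = 0.105), Mcm4 at -0.27 (0.0789), Mcm3 at -0.19 (0.114), Birc5 at -0.23 (0.0721) and Cenpa at -0.21 (0.16). Cdk1, at -0.25, and Ccnb2, at -0.22, did not pass either. The 6 that passed were Rrm2 (-0.51), Top2a (-0.52), Mad2l1 (-0.50), Pcna (-0.43), Nusap1 (-0.36) and Ccne1 (-0.31). Of the 13, Top2a alone moved by over 1.5 times without another array, to -0.24 without WT stress colon.

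The genotype comparison of further pathway genes, beside 6.55% of all tested genes called lower, gave 13 of 37 further replication genes lower and 0 higher (median -0.28), with the primase gene Prim1 at -0.56 ± 0.11 and the origin recognition gene Orc1 at -0.50 ± 0.13. Of 45 further mitosis genes, 10 were lower and 0 higher (median -0.25), with the centromere gene Cenpk at -0.66 ± 0.11 and the kinesin gene Kif15 at -0.59 ± 0.13. Of the 26 G1 and E2F network genes, 3 were lower and 0 higher (median -0.01), among them Rbl1 (p107) at -0.42 ± 0.10 and Myc at -0.42 ± 0.10. Of the 14 CDK inhibitors and antiproliferative genes, 0 were called, with a median of 0.07. Treated as 8 independent arrays, or without the variance trend, none of the genes in these 4 lists was called. The model of independent arrays without WT stress rectum called 7.74% of all tested genes lower. In it 12 further replication genes were lower and 0 higher, and 9 further mitosis genes were lower and 1 higher. In the fit to tissue means, 1614 of all 26265 probes were called higher and 1454 lower in IL18ko, and with median centring 777 and 1365.

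Beside these differences, all 7 adipocyte markers were higher in IL18ko, with a summed level of 10.7 to 55.6 in WT and 28.8 to 55.2 in IL18ko. The median adipocyte marker differed by 0.11 and 1.25 in control and stressed colon, and by 2.4 and 1.96 in control and stressed rectum. Skeletal muscle markers summed to 3.72 to 20.4 in WT and 3.47 to 151.0 in IL18ko, with 4 of 10 higher. The 151.0 was on the IL18ko control rectum array, and IL18ko stress rectum was at 33.4. The median skeletal muscle marker differed by -0.08, -1.23, 4.85 and 0.62 in the same order of pairs. Smooth muscle markers summed to 436 to 556 and 529 to 723, with 2 of 6 higher. Epithelial markers summed to 1260 to 1500 and 1320 to 1420, with 0 of 9 called. Stem and progenitor markers summed to 20.5 to 23.9 and 18.6 to 22.7, with 1 of 9 lower (Lgr5, -0.54). Lists of immune cells were mixed. The median B and plasma cell marker differed by -0.17 and 0.43 in control and stressed colon, and by -0.76 and -1.21 in control and stressed rectum. Of 5 tested B and plasma cell markers 2 were lower, Jchain (-0.77) and Mzb1 (-0.54), and all 5 lay below 0. Their summed level was 4.22 to 27.2 in WT and 1.48 to 27.4 in IL18ko. Neutrophil markers summed to 0.059 to 2.03 and 0.0471 to 1.63, with 1 of 3 lower (S100a9, -0.47). Squamous epithelium markers summed to 3.61 to 5.22 and 2.98 to 7.72, with 2 of 5 higher, Krt5 (2.23) and Col17a1, which was well above background on 4 arrays only. Of 4 macrophage markers 1 was higher (Cd163, 0.45), and all 4 lay above 0. Of the 4 positional genes of the hindgut 2 were higher, Cdx2 (1.37) and Hoxd10 (0.51). Markers of differentiated colonocytes, goblet cells, T cells, and fibroblasts and endothelium had 0 called. The part of these cells in the genotype differences was not tested.

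Isolation stress was compared with control housing in the same fit. None of the 37 genes was called (limma; 1 had an unadjusted p under 0.05), where 0.0629% of all tested genes were called. The median difference was -0.04 for replication genes and -0.06 for mitosis genes, and without the WT stress rectum array -0.09 and -0.10. Ccnb1, with the levels given above, had the largest difference, -0.32 ± 0.11 (adjusted p = 0.39), and was lower on the stress array in 4 of 4 pairs, with differences from -0.56 to -0.08. Its other 2 probes gave -0.35 and -0.47 and did not pass either.

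Ttk was at -3.60, -3.98, -3.93 and -4.14 on the control arrays (WT colon, WT rectum, IL18ko colon, IL18ko rectum) and at -3.73, -4.53, -4.25 and -4.15 on the stress arrays. Control and stress overlapped, and the difference was -0.25 ± 0.19 (adjusted p = 0.694). Mcm5 was at 2.03, 1.99, 1.79 and 1.63 with control housing and at 2.04, 1.46, 1.53 and 1.59 with stress, a difference of -0.20 ± 0.10 (adjusted p = 0.549). Cdc6 was at -2.10, -2.03, -2.38 and -2.38 and at -2.26, -2.31, -2.70 and -2.41, a difference of -0.20 ± 0.14 (adjusted p = 0.671). These groups overlapped too. The differences without the WT stress rectum array were -0.21 for Ccnb1, -0.16 for Cdc6, -0.11 for Ttk and -0.09 for Mcm5.

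In WT rectum the single stress array spread the genes widely. Stress minus control differences of mitosis genes there had a median of 0.23, with Aurkb at 1.19 and Top2a at -0.60. In the other 3 pairs the mitosis medians were -0.14 (WT colon), -0.16 (IL18ko colon) and -0.02 (IL18ko rectum). For replication genes the medians were -0.09, 0.03, 0.19 and -0.15 in WT colon, IL18ko colon, WT rectum and IL18ko rectum. The 2 probes of Cdc6 gave -0.28 and 0.96 in WT rectum, and only the brightest, at -0.28, counts in these values. The cause of the spread was not tested.

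**Figure D5:**
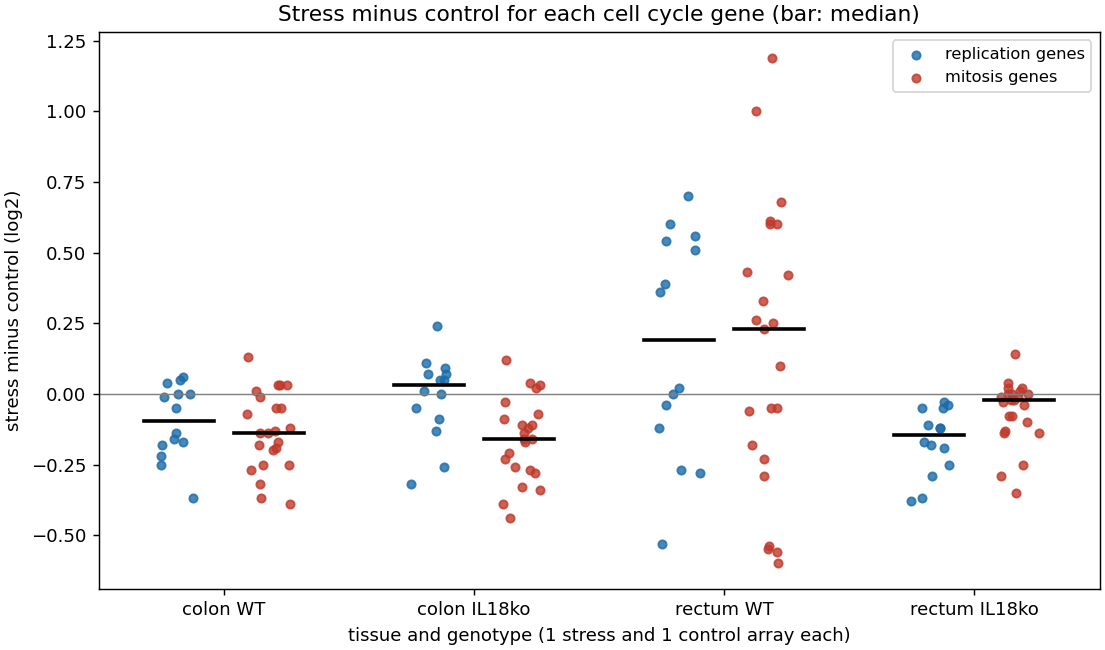
Stress minus control difference of each gene (log2, vertical axis) in the 4 combinations of tissue and genotype, each from 1 stress and 1 control array. Points are genes, coloured by role, and black bars are medians. The points of WT rectum spread from -0.60 to 1.19, wider than in the other 3 combinations.

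No gene of the 37 passed in a test of whether the genotype or stress difference depended on another factor. For the genotype difference in rectum minus that in colon 0.55% of all tested genes were called, for the stress difference in rectum minus that in colon 0.181%, and for the stress difference in IL18ko minus that in WT 0.0%; the unadjusted p of the 37 genes was under 0.05 for 0 genes in each. The 2 largest genotype by tissue values of each role were those of Aurkb (-0.85 ± 0.46) and Aurka (-0.56 ± 0.42) among the mitosis genes, and of Mcm6 (-0.56 ± 0.39) and Cdt1 (-0.53 ± 0.42) among the replication genes, each with an adjusted p of 1.0. Mcm6 was at 4.48, 4.48, 4.39 and 4.50 in colon (WT control, WT stress, IL18ko control, IL18ko stress) and at 4.53, 5.13, 4.38 and 4.09 in rectum. Cdt1 was at 2.49, 2.54, 2.65 and 2.74 in colon and at 2.86, 3.56, 2.93 and 2.80 in rectum. The WT stress rectum array was the highest for both. Aurkb was at -0.26, -0.58, -0.20 and -0.23 in colon and at -0.91, 0.28, -0.82 and -1.10 in rectum, and Aurka at 3.17, 2.78, 3.05 and 2.91 and at 2.23, 2.84, 2.10 and 1.85. For Aurkb the WT stress rectum array was again the highest, and for Aurka it was the highest of the rectum arrays only.

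Without the WT control rectum array or without the IL18ko control rectum array, 5 genes passed for genotype by tissue (Aurka, Aurkb, Cdt1, Mcm6 and Tyms), where 5.72% of all tested genes were called lower. The values were then -1.59 for Aurkb, -1.0 for Mcm6, -0.99 for Aurka and -0.94 for Cdt1. Both of these fits take the genotype difference in rectum from the stress arrays alone, the WT stress rectum array among them. Without the WT stress rectum array or without the IL18ko stress rectum array, the values lay near 0, at -0.13 for Aurka, -0.12 for Aurkb, -0.12 for Cdt1 and -0.11 for Mcm6. The stress by tissue values were 0.63 ± 0.46 for Aurkb, 0.62 ± 0.46 for Bub1, 0.27 ± 0.42 for Mcm3 and 0.22 ± 0.42 for Cdt1. Without the WT stress rectum array they were -0.11, -0.05, -0.19 and -0.20. The stress by genotype values were -0.61 ± 0.45 for Bub1, -0.59 ± 0.57 for Aurkb, -0.40 ± 0.32 for Mcm3 and -0.39 ± 0.33 for Cdt1. Without that array they were 0.19 for Aurkb, -0.03 for Bub1, -0.01 for Mcm3 and 0 for Cdt1.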

How the data were processed

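The authors deposited 1 scanner file per array, with a background-corrected intensity per spot made by Agilent Feature Extraction 9.5.1.1, per the file headers, from single-colour (Cy3) labelling of 400 ng of pooled RNA, per the labels. They also deposited a table of ratios to the WT control colon array, per the labels; its log2 correlated with scanner ratios at r from 0.995 to 0.999. How the authors scaled the arrays is not given in the sources used here.

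Outlier spots were removed, and log2 intensity was set relative to the 75th percentile of each array. Probes detected above background on 4 or more of the 8 arrays (26265 probes, 12718 genes) were tested with limma and a variance trend over the mean level. Tissue was tested on 4 rectum minus colon differences. Genotype and stress were tested on 4 tissue means, and their dependence on tissue on 4 differences. The stress difference between genotypes used the 8 arrays, with tissue as a term, because the tissue means left no residual for it. That fit treated the colon and rectum arrays of a mouse group as independent. The brightest probe stood for a gene. No group had a replicate pool, so the p-values do not measure the spread between pools of the same group. For tissue they rest on the spread of the 4 differences, taken from mouse groups unlike in genotype or housing, and on variance shared across probes. For genotype and stress they rest mostly on variance shared across probes. The fits were tested on simulated data.

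Members and lists were chosen with earlier results of these data known. All 37 measured members may be named. Values on every array are given for Pcna and, per comparison and role, for the 4 called members with the largest differences, or 2 where none was called. Of each other list, the 2 largest called genes per direction are named. A marker result of the genotype comparison is not reported here. Alternatives were other scalings, background corrections, filters, probe rules and designs, the deposited ratios, and leaving out arrays. The fits ran in limma 3.58.1 under R 4.3.3, and tables and plots were made with pandas 2.3.3 and matplotlib 3.10.9 under Python 3.11.15.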

Additional observations from a re-analysis of the deposited data

Results flagged for a closer look

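Cenpa, the centromeric histone gene, had 1 pair far from the others in the comparison of rectum with colon: the WT stress pair differed by -0.18, and the other 3 by -1.05, -1.06 and -1.10. The same rule was applied to 17 sets of 4 differences, of which chance alone would set apart about 0.85. The cause was not tested.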

How the results depend on the processing

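The labels give 1 pool per group and no replicate numbers to pair arrays by; the tissue comparison paired the arrays by mouse group. For tissue, leaving out 1 pair gave between 3 and 24 of 37 genes, against 17. Those fits called 8.89% and 22.2% of all tested genes lower, against 15.3%. For genotype, leaving out 1 array gave between 0 and 11, against 13 in the fit to tissue means. The fit with 11 called 7.74% of all tested genes lower, against 6.55%. Genotype gave 8 calls after quantile normalization, 0 without the variance trend, 0 with 8 independent arrays and 20 with mouse groups as a random effect. The share of all tested genes called lower moved too, at 4.54%, 0.0472%, 0.0708% and 12.1% in the same order. The cause was not tested. For genotype by tissue, leaving out 1 array gave between 0 and 5 calls. With 1 array left out the stress by tissue value ran from -0.19 to 0.74 for Mcm3, -0.20 to 0.63 for Cdt1, -0.11 to 1.36 for Aurkb and -0.05 to 1.3 for Bub1, the lowest without either WT rectum array. The stress by genotype value of Aurkb ran from -1.38 to 0.19, the highest without WT stress rectum. Median differences per role kept their direction, or stayed within the spread of the pairs, in each alternative other than leaving out arrays. The fits with 1 array left out treated the remaining arrays as independent. With 8 arrays of pools, their number limits the precision.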
